A study of Rattus norvegicus with 12 samples.

Results

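Testes of F2 vinclozolin-lineage rat embryos were compared with testes of F2 control-lineage embryos at embryonic day 16. The comparison used 4 of the 12 arrays of the study, 2 for each F2 lineage, chosen by their titles, and all 31042 probe sets that were not Affymetrix controls. In the control lineage, pregnant founder females had received a vehicle of sesame oil and DMSO by intraperitoneal injection on days 8 to 14 of pregnancy, and in the vinclozolin lineage they had received vinclozolin at 100 mg/kg/day on the same days. The F2 embryos were the grandoffspring of the founders and were not dosed themselves. The treatment text of the F2 vinclozolin samples describes the mated F1 parents in the same words as that of the controls, as animals of different control lines, so the group was taken from the titles. About 10 testes of 1 treatment were pooled for each RNA, and the labels do not name the litters. The p-values therefore measure the spread between RNA pools, which may be partly technical. The other 8 arrays, 2 each of F1 control, F1 vinclozolin, F3 control and F3 vinclozolin, entered the estimate of that spread. They also served for the comparison with the other generations.

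Vinclozolin is a fungicide, and its breakdown products are antagonists of the androgen receptor. In the rat testis at this age the Sertoli cells enclose the germ cells in cords, and the fetal Leydig cells between the cords make testosterone and Insl3, which masculinise the embryo. F1 embryos are exposed in the womb, and F2 embryos only as the germ cells of the F1 fetus. The F2 comparison asks whether the testis differs one generation after the exposed embryo.

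The samples read as fetal testis. Amh, the Sertoli hormone that removes the female duct, had a signal of 2961 and 3231 on the control arrays and 3418 and 3344 on the vinclozolin arrays. Cyp17a1, a steroidogenic enzyme of Leydig cells, ran from 3933 to 4598 over the 4 arrays, and Foxl2, an ovarian transcription factor, stayed at or below 24.2. Signals were scaled alike on all arrays, with medians of 46.9 and 44.7 in the F2 controls and 41.2 and 40.8 in the F2 vinclozolin group. The 5′ to 3′ signal ratio of beta-actin, a measure of how complete the labelled RNA is, was 0.423 and 0.471 in the F2 controls and 0.246 and 0.219 in the F2 vinclozolin group, with 0.423 to 0.471 over all 6 control arrays. The Gapdh ratio was 0.994 and 0.995 against 0.800 and 0.721. On both ratios the 2 vinclozolin arrays lay below both F2 controls. These values stand beside every F2 gene group described here, and their part in the results was not tested.

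Values were compared as log2(signal + 16), so a difference of 1 is close to a doubling for a bright probe set and understates the change of a dim one. Of 21729 probe sets tested, 3118 (14.3%) passed a limma adjusted p of 0.05 in F2, 1021 (4.7%) higher and 2097 (9.65%) lower in the vinclozolin lineage. More than a 2-fold change was seen for 416 of the lower probe sets and for 21 of the higher ones. At an unadjusted p under 0.05 the count was 6205. All 3118 had vinclozolin arrays that did not overlap the control arrays, as did 58% of all probe sets tested. Of the higher calls, 986 also lay above all 6 control arrays of the 3 generations, as did 18.2% of all probe sets. Of the lower calls, 2060 lay below all 6, as did 21.4% of all. The number of calls was 1157 without F2 control replicate 1, 1212 without F2 control replicate 2 and 1083 without F2 vinclozolin replicate 2. It was 4884 and 4883 without F1 vinclozolin replicate 1 or 2, from the estimate of the spread. Centring each array on its median turned the split to 2594 higher and 1494 lower and moved the median of all genes (at their brightest probe set) from 0.04 to 0.16. Quantile normalization gave 1189 higher and 1856 lower calls.

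The array often carries several probe sets for 1 gene, and 3267 of the 11287 named genes tested had at least 2. At the brightest probe set of these genes, chosen by the mean of all 12 arrays, the median F2 difference was 0.04. The F2 vinclozolin arrays thus entered the choice. Of the genes, 7.16% were called higher there and 6.40% lower. At their 4486 other probe sets the median was -0.22, with 2.19% called higher and 23.8% lower. Of the 1641 lower calls in named genes, 1066 were at a probe set that was not the brightest of its gene, 209 at the brightest of several and 366 at the only one tested. Among the 777 higher calls these numbers were 98, 234 and 445.

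**Figure D1:**
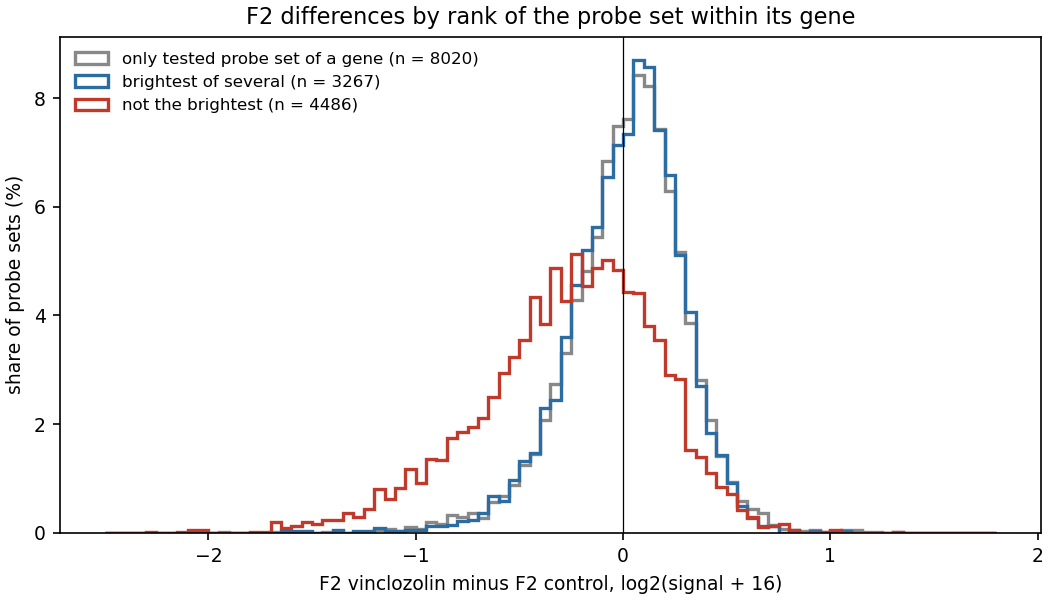
Distribution of the F2 difference (x axis, log2(signal + 16), vinclozolin minus control, in steps of equal width) as the share of probe sets in percent (y axis), for the only tested probe set of a gene, the brightest of several and those not the brightest. The curve of probe sets that are not the brightest lies to the left of the other curves, with a median of -0.22 against 0.04 for the brightest of several.

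The same was seen among probe sets of similar signal. Where the mean signal was above 133, 28.2% of those that were not the brightest of their gene were called lower, against 6.93% of the brightest of several and 4.95% of single ones. Where it was below 31.3, the shares were 13.0%, 0 of 114 and 3.41%. The F2 median was -0.08 for probe sets within 1.79-fold of the brightest one of their gene, -0.27 for those 1.80 to 3.49-fold dimmer and -0.34 for those further below. When the brightest probe set was chosen on the F1 and F3 control arrays, which do not enter the F2 difference, the medians were 0.03 for the brightest and -0.21 for the others. Of the brightest, 6.8% were then called higher and 7.3% lower, and of the others 2.45% and 23.1%. By distance from the brightest, the medians were then -0.09 up to 1.70-fold, -0.27 up to 3.21-fold and -0.28 further below. With the choice on all 12 arrays, the other probe sets had a median of -0.26 in F1 and -0.10 in F3. Median centring moved the median of the other probe sets to -0.11, and quantile normalization to -0.15. The F2 vinclozolin arrays were those with the lower beta-actin ratios (0.246 and 0.219 against 0.423 and 0.471), and the part of this in the pattern was not tested.

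Genes that kept their direction at several probe sets were few. At least 2 probe sets were called lower, and none higher, in 178 of the 3267 genes (5.45%), and at least 2 were called higher, and none lower, in 14 (0.429%). In 98 of the 178 the brightest probe set was not called, and in 57 of these 98 it lay above 0. All tested probe sets were called lower in 44 genes (1.35%) and higher in 5 (0.153%). Leaving out F2 control replicate 1, F2 control replicate 2 or F2 vinclozolin replicate 2 gave 65, 65 and 57 genes lower and 1, 2 and 2 higher. Without F2 vinclozolin replicate 1 there were 166 and 6, without F1 vinclozolin replicate 1 or 2 there were 241 and 37, and median centring gave 94 and 60.

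The 5 genes that rose at every tested probe set were Tmed9, Igf2bp2, Tnpo3, Rc3h1 and Ggnbp2. Tmed9, a cargo receptor of vesicles between endoplasmic reticulum (ER) and Golgi, read 1066 and 1140 in control and 1602 and 1627 in vinclozolin at its brighter probe set. That was a difference of 0.54 ± 0.07 (SE; adjusted p = 0.000313), and its dimmer probe set also rose by 0.54 ± 0.12 (adjusted p = 0.00895). The groups were well apart at both. Igf2bp2, an RNA-binding protein of growth and metabolism, read 844 and 861 in control and 1136 and 1252 in vinclozolin, and its probe sets differed by 0.48 ± 0.08 and 0.56 ± 0.17 (adjusted p = 0.0015 and 0.038). Tnpo3, an importin that carries splicing factors into the nucleus, rose by 0.45 ± 0.14 at the brighter and 0.51 ± 0.12 at the dimmer probe set (adjusted p = 0.0403 and 0.0104). Rc3h1, which marks mRNAs for decay, and Ggnbp2, a binding partner of gametogenetin, rose by 0.33 to 0.43 at each of their probe sets (adjusted p = 0.0157 to 0.0309). Both F2 vinclozolin arrays were above both controls at each of these probe sets, as at every probe set called higher. Cyclic loess normalization ended both calls of Ggnbp2 and that of the brighter probe set of Tnpo3, and leaving out F2 control replicate 1 ended the calls of Tnpo3, Ggnbp2 and Rc3h1 at both probe sets and that of Igf2bp2 at the dimmer one.

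Fkbp2, an ER prolyl isomerase, rose at 2 of 3 probe sets. It read 389 and 425 in control and 562 and 662 in vinclozolin, a difference of 0.57 ± 0.11 (adjusted p = 0.00322), with 0.96 ± 0.19 and 0.28 ± 0.13 at its other probe sets (adjusted p = 0.0037 and 0.166). Trappc5, a subunit of the TRAPP tethering complex of ER to Golgi vesicles, rose by 0.55 ± 0.11 and 0.38 ± 0.12 at 2 of 3 probe sets (adjusted p = 0.00446 and 0.0413). Vash2, a vasohibin that acts on vessel growth and tubulin, and Rbms3, an RNA-binding protein, each rose at 2 of 3 probe sets, by 0.36 to 0.45. Fstl1, a secreted follistatin-like protein, Ttc3, a ubiquitin ligase, and Map4k4, a stress kinase, also rose at 2 of 3. Their remaining probe sets read -0.73, -0.53 and -0.47 and did not pass (adjusted p = 0.0558, 0.0507 and 0.0961).

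Adam10 and Xiap had the lowest medians of the 44 genes that fell at every tested probe set. Adam10, a membrane protease that cleaves Notch and other surface proteins, read 138 and 144 in control and 50.8 and 28.5 in vinclozolin at its brighter probe set, a difference of -1.53 ± 0.24 (adjusted p = 0.000769). Its second probe set fell from 49.3 and 51.1 to 19.4 and 12.5, a difference of -1.06 ± 0.18 (adjusted p = 0.0015). Both vinclozolin arrays were far below both controls at either probe set. Xiap, an inhibitor of caspases, differed by -1.68 ± 0.21 and -0.64 ± 0.19 (adjusted p = 0.000189 and 0.0375), the second being its brighter probe set. Ddx17, a DEAD-box RNA helicase, differed by -0.78 ± 0.17 at the brighter probe set (388 and 388 against 229 and 210) and -1.46 ± 0.21 at the other (adjusted p = 0.0075 and 0.000442). Reep6, which shapes ER membranes, read 276 and 268 in control and 180 and 172 in vinclozolin at its brighter probe set (-0.59 ± 0.15, adjusted p = 0.0181) and differed by -1.48 ± 0.16 at the other (adjusted p = 6.7e-05). The uncharacterised LOC100912031 differed by -1.34 ± 0.14 and -0.86 ± 0.15 (adjusted p = 6.6e-05 and 0.00144).

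Other genes that fell throughout include Gnas, the stimulatory G protein alpha subunit that couples the LH receptor to cAMP (-1.14 to -0.27 over 3 probe sets), and App, the amyloid precursor protein (-1.32 to -0.40 over 3). Cdk12, a kinase of transcription elongation, ran from -1.30 to -0.37 and Mcl1, a survival protein of the Bcl2 family, from -1.02 to -0.38. Cdh2, the N-cadherin that joins Sertoli and germ cells, differed by -0.51 and -0.40, and Ocln, the tight junction protein occludin, by -0.89 and -0.42. With median centring 2 probe sets of App and 1 each of Cdk12, Gnas, Mcl1, Cdh2, Ocln and Xiap lost the call. Leaving out F2 control replicate 1 ended the same calls and those of a second probe set of Cdh2 and of Ocln.

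**Figure D2:**
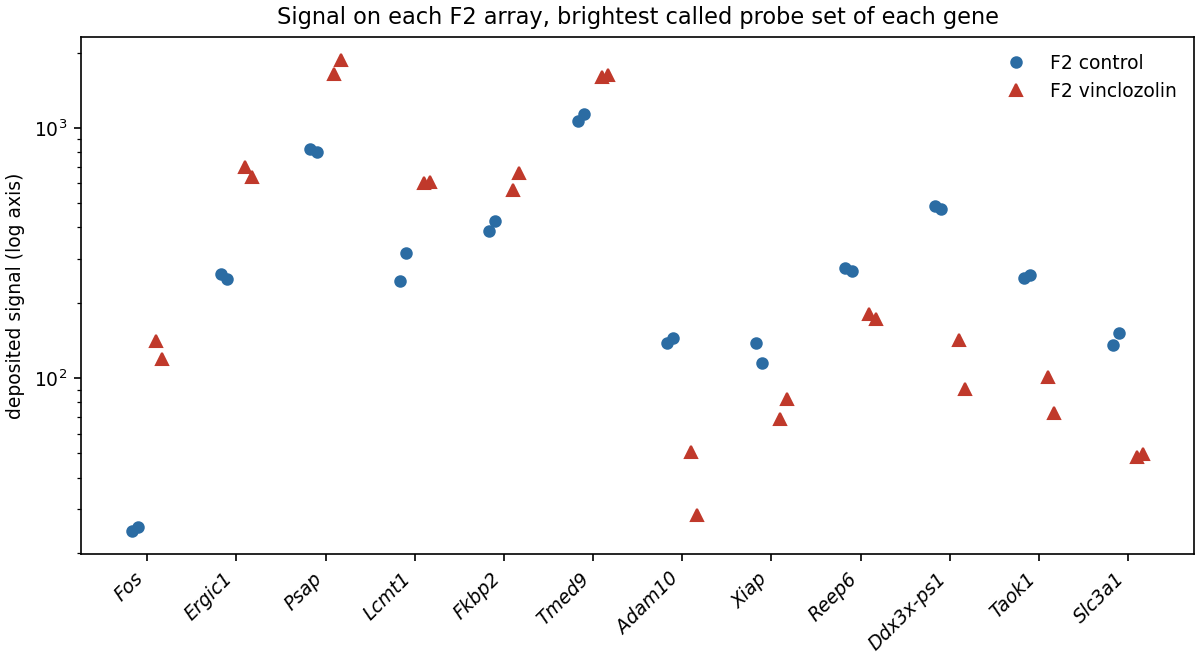
Deposited signal (y axis, log axis) on each F2 array for 12 genes named by the selection rule, at the brightest probe set that passed the test. Circles are the 2 control pools and triangles the 2 vinclozolin pools. In every gene shown the triangles lie all above or all below the circles, from Fos (24.5 and 25.4 against 141 and 119) to Slc3a1 (136 and 152 against 48.5 and 49.6).

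Several genes with strong drops at 2 or more probe sets showed none at the brightest. Dag1, dystroglycan, the laminin receptor of the basement membrane, differed by -0.97 ± 0.11, -1.69 ± 0.18 and -1.55 ± 0.19 at 3 probe sets (adjusted p = 9.8e-05, 5.4e-05 and 0.000184). At the brightest one it read 702 and 664 in control and 699 and 759 in vinclozolin, a difference of 0.09 ± 0.13 (adjusted p = 0.703), and the groups overlapped. Fgfr2, the receptor through which Fgf9 acts in testis formation, differed by -1.05 ± 0.17 and -1.23 ± 0.22 at dim probe sets (adjusted p = 0.00103 and 0.00219) and by 0.08 ± 0.10 at the brightest, which read 344 to 374 over the 4 arrays. Igf2bp3, an RNA-binding protein of fetal tissues, differed by -1.15 ± 0.19 and -0.99 ± 0.13, against 0.26 ± 0.09 at its brightest (adjusted p = 0.0785). Akap1, a mitochondrial anchor of protein kinase A, Tgoln2, a trans-Golgi protein, and Zfp655, a zinc finger protein, fell by 1.07 to 1.26 at 2 of 3 probe sets, and their brightest read -0.29, -0.13 and -0.07. Fscn1, an actin-bundling protein, fell by 1.62 and 1.26 at its brighter pair and read 0.24 ± 0.20 at the dimmest.

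In 89 genes at least 1 probe set was called in each direction. Tpm3, an actin-binding tropomyosin, had the widest span: of its 12 tested probe sets 6 fell, 1 rose and 5 did not pass. Its brightest probe set read 1603 and 1636 in control and 1141 and 1142 in vinclozolin, a difference of -0.50 ± 0.08 (adjusted p = 0.000958). Another fell from 935 and 919 to 326 and 284 (-1.56 ± 0.10, adjusted p = 1.3e-06), while a dim one rose from 77.5 and 50 to 151 and 137 (1.02 ± 0.17, adjusted p = 0.00122). Prkacb, a catalytic subunit of protein kinase A, rose from 617 and 583 to 874 and 1054 at its brightest probe set (0.66 ± 0.11, adjusted p = 0.000981). Its other probe sets fell by 1.09 ± 0.24 and 0.82 ± 0.17 (adjusted p = 0.00782 and 0.00524). Ccar1, a regulator of apoptosis and the cell cycle, had calls of -2.05, -0.61 and 0.43. Phf14, a reader of histone marks, had -1.46 and 0.51, Nsd3, a histone methyltransferase, -1.38 and 0.49, and Aplp2, a relative of App, -1.22 and 0.69. In Aplp2 the brightest probe set was called in neither direction (-0.23 ± 0.15).

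**Figure D3:**
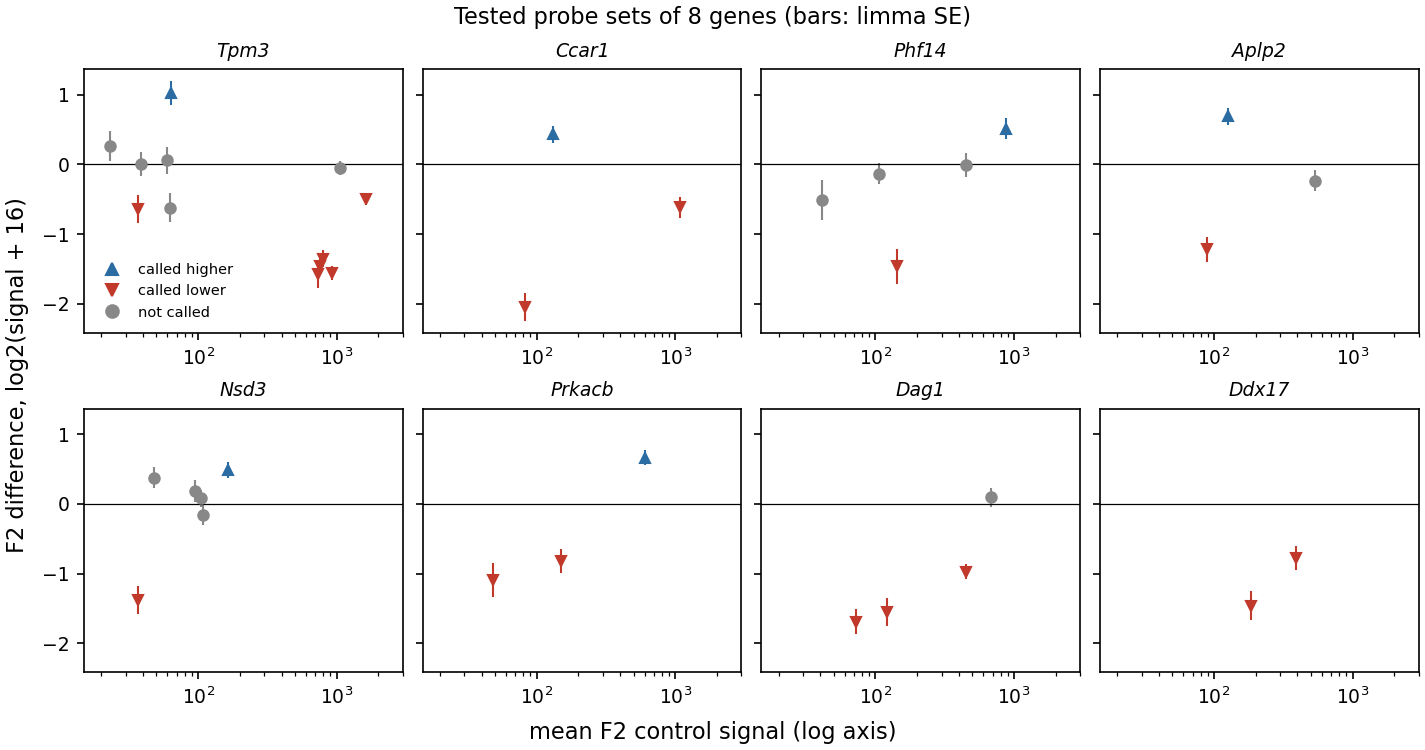
F2 difference (y axis, log2(signal + 16), with limma SE bars) of every tested probe set of 8 genes against its mean signal on the F2 control arrays (x axis, log axis). Upward triangles were called higher, downward triangles lower and circles neither, so that Prkacb shows 1 probe set at 0.66 above 2 at -1.09 and -0.82.

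Fos had the largest rise among genes with a single tested probe set and a higher mean of at least 100. Fos, an immediate early transcription factor, read 24.5 and 25.4 in control and 141 and 119 in vinclozolin (1.83 ± 0.29, adjusted p = 0.00087). Ergic1, a membrane protein of the compartment between ER and Golgi, rose from 260 and 248 to 697 and 638 (1.34 ± 0.13, adjusted p = 2.4e-05). Psap, prosaposin, the precursor of the proteins that help lysosomes degrade sphingolipids, rose from 827 and 798 to 1638 and 1862 (1.09 ± 0.10, adjusted p = 1.6e-05). The pools of a group lay much closer to each other than to the other group in all 3. Lcmt1, which methylates protein phosphatase 2A, rose by 1.08 ± 0.16 (adjusted p = 0.0006) and the metal-binding Mt3 by 1.11 ± 0.19 (adjusted p = 0.00137). Rpl39, Ier2, Rbm28, Prrc2a and Erhl1 rose by 0.94 to 1.12. Rpl39 encodes a ribosomal protein whose processed copies may share its probes, and its call was lost when any 1 of the 4 F2 arrays was left out.

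The single-probe-set gene with the largest drop was Ddx3x-ps1, a pseudogene of the RNA helicase gene Ddx3x. It read 489 and 473 in control and 142 and 90.2 in vinclozolin (-1.94 ± 0.18, adjusted p = 1.6e-05). Ddx3x itself differed by -1.61 ± 0.21 at 1 probe set and by 0.02 ± 0.08 at its brightest, and signals of gene and pseudogene may not be separable. Taok1, a kinase of stress and microtubule pathways, fell from 252 and 258 to 101 and 72.3 (-1.41 ± 0.18, adjusted p = 0.000195). Slc3a1, the heavy chain of a cystine transporter, fell from 136 and 152 to 48.5 and 49.6 (-1.29 ± 0.13, adjusted p = 4e-05). Sgpl1, which degrades sphingosine 1-phosphate, and Ireb2, an iron-responsive RNA-binding protein, both fell by 1.36 on the log2 scale (adjusted p = 0.000316 and 6.7e-05). Golph3, Pcdh19, Siah1, Arid5b and Zdhhc20 differed by -1.22 to -1.11.

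Functions were read from 36 lists of genes at the brightest probe set of each gene, where 679 of 11287 genes (6.02%) were called higher, 575 (5.09%) lower, and the median was 0.04. Where the mean signal was above 133, 9.67% of the brightest of several were called higher and 6.93% lower. Of single ones, 9.02% were called higher and 4.95% lower, and both medians were 0.07. Not all lists are described below. Among those left out, proteasome genes had 3 higher and 1 lower calls of 33, and translation factors 3 and 0 of 42. Cell cycle and DNA replication had 2 and 3 of 48, and glycolysis 1 and 2 of 20. Among 43 tested genes of ER import and folding, 5 rose and 5 fell, and the median was 0.12. The genes that fell were chaperones and folding enzymes. Pdia4, a protein disulfide isomerase, read 492 and 474 in control and 249 and 244 in vinclozolin (-0.93 ± 0.11, adjusted p = 0.000158). Pdia3, its relative that works with calreticulin, fell from 1379 and 1386 to 946 and 846 (-0.62 ± 0.09, adjusted p = 0.000422). Hsp90b1, the ER chaperone Grp94, fell from 2490 and 2412 to 1749 and 1896 (-0.43 ± 0.08, adjusted p = 0.00247). In each of these 3 genes both vinclozolin arrays were below both controls by far more than the pools of a group differed. Hyou1, an ER chaperone of the Hsp70 family, fell at both probe sets, by 0.60 ± 0.14 and 1.02 ± 0.27 (adjusted p = 0.00893 and 0.0204). Calr, calreticulin, differed by -0.23 ± 0.08 (adjusted p = 0.0496), a call that was lost under 16 of 26 alternatives. Hspa5, the ER Hsp70 protein BiP, read 2575 and 2611 against 2651 and 2232, overlapping groups (-0.09 ± 0.08, adjusted p = 0.513).

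Of the 5 genes that rose, Srp19, Srp14 and Ssr1 act in the entry of proteins. Srp19, a subunit of the signal recognition particle, read 579 and 588 in control and 886 and 906 in vinclozolin (0.60 ± 0.09, adjusted p = 0.000418). Ssr1, of the translocon-associated complex, rose from 902 and 881 to 1227 and 1160 (0.41 ± 0.08, adjusted p = 0.00291), while its dimmer probe set fell by 0.51 ± 0.11 (adjusted p = 0.00638). Srp14 (0.37 ± 0.11), the glycosylation subunit Rpn2 (0.30 ± 0.09) and the lectin chaperone Canx (0.32 ± 0.08) rose too (adjusted p = 0.0403, 0.0409 and 0.0157). Canx is a folding protein, and its other probe sets fell by 0.96 ± 0.17 and 0.28 ± 0.08 (adjusted p = 0.00179 and 0.032). Srp19, Ssr1, Pdia4, Pdia3 and Hsp90b1 were called under all 26 alternatives. Without F2 control replicate 1 or 2, or F2 vinclozolin replicate 1 or 2, the list had 2, 2, 4 and 2 higher and 3, 3, 3 and 4 lower calls, and without F1 vinclozolin replicate 1 or 2 it had 12 higher and 7 or 8 lower. The counts were 14 higher and 4 lower with median centring and 3 and 7 with loess.

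**Figure D4:**
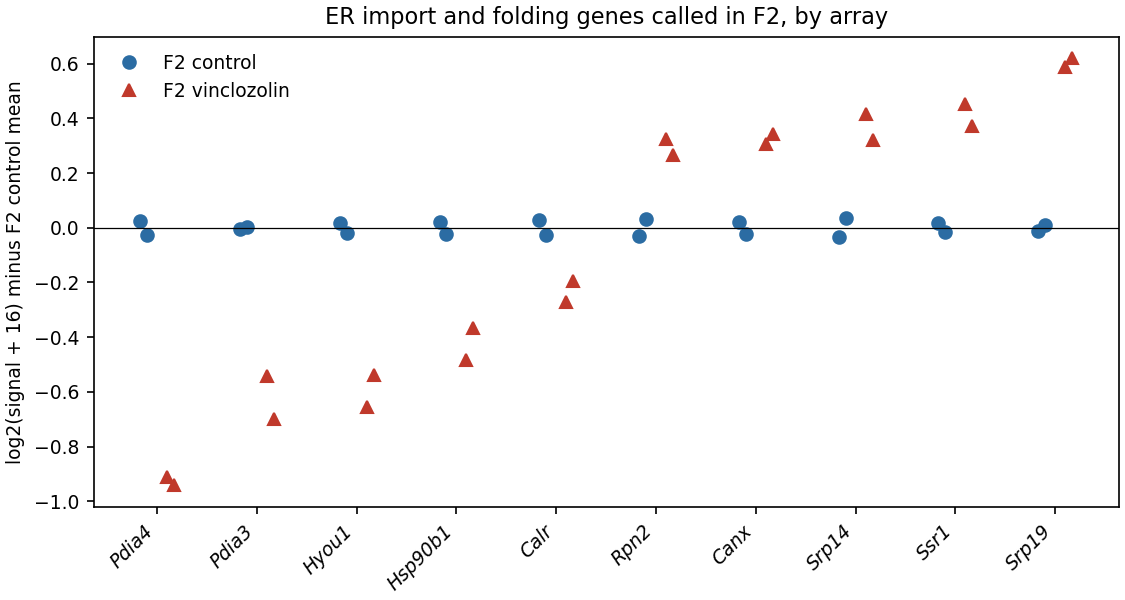
log2(signal + 16) minus the mean of the F2 controls (y axis) on each F2 array for the 10 genes of ER import and folding called at their brightest probe set. Circles are control pools and triangles vinclozolin pools. Pdia4, Pdia3, Hyou1, Hsp90b1 and Calr lie below their controls, down to a difference of -0.93, and the other genes above, up to 0.60 in Srp19.

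Chaperone genes of the ER are known targets of the ER stress response element, written as CCAAT, then 9 bases of any kind, then CCACG, so the 250 bases upstream of the gene starts in the RefSeq table (build GRCr8) were searched for it on both strands. It was present in 5 of 39 matched genes of the ER list (12.8%), against 15 of 9380 matched tested genes (0.16%). Counted by promoter, it was present in 22 of 33469 in the table (0.0657%). The 5 genes were Hspa5, Hsp90b1, Canx, Dnajc3 and Calr. Genes with the element therefore stood among those that fell (Hsp90b1, Calr), those that rose at the brightest probe set (Canx) and those that did not pass (Hspa5, and Dnajc3 at 0.14). The upstream sequences of Hsp90b1, with the largest drop of these 5 at the brightest probe set, of Calr and of the uncalled Hspa5 are shown so that the element can be compared. They run 5′ to 3′ on the strand of the gene, and the fixed letters of each match are in capitals. They lie at chr7:23012294-23012543 (minus strand), chr19:40213117-40213366 (plus) and chr3:38452766-38453015 (plus).
Hsp90b1: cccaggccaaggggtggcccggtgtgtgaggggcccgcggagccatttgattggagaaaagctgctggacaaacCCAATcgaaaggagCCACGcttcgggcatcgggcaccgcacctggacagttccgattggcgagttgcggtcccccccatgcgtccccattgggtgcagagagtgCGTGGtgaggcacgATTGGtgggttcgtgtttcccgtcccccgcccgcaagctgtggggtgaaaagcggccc
Calr: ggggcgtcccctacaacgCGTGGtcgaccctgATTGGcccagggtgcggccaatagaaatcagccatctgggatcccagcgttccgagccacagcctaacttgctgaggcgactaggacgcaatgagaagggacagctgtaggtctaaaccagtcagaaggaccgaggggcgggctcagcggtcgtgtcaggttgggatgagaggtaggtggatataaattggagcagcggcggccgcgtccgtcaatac
Hspa5: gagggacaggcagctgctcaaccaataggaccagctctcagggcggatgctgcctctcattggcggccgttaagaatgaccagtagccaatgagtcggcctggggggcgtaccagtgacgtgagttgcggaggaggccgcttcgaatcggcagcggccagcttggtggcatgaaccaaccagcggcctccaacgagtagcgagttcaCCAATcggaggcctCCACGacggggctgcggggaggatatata
Hsp90b1 had 2 matches, 1 on each strand, and Calr and Hspa5 had 1 each. A match describes the sequence and does not show that a factor was bound.

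Vesicle traffic from ER to Golgi had 7 higher and 4 lower calls among 58 genes (median 0.08). Beside Ergic1, Tmed9 and Trappc5, the Golgi SNARE Gosr1 rose by 0.61 ± 0.14 (adjusted p = 0.0106), and its other probe sets read -0.28 and -0.24 without passing. The coat proteins Sec31a and Sec24d fell by 0.54 and 0.47, and the SNARE Ykt6 and the small GTPase Rab1b by 0.45 and 0.46, the call of Ykt6 being lost under 18 of the 26 alternatives. The small GTPases Sar1a and Rab2a and the coat protein Copb2 rose by 0.38, 0.33 and 0.30. Leaving out F2 control replicate 1 or 2, or F2 vinclozolin replicate 1 or 2, gave 3, 5, 5 and 4 higher and 0, 1, 2 and 1 lower calls, and leaving out F1 vinclozolin replicate 1 or 2 gave 10 and 8. Median centring gave 15 higher and 1 lower.

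Lysosomal genes had 9 higher and 1 lower calls among 53 (median 0.14). After Psap, the hydrolases Gla, Gaa, Arsb and Gusb rose by 0.55 ± 0.14, 0.45 ± 0.12, 0.39 ± 0.12 and 0.35 ± 0.11 (adjusted p = 0.0165, 0.0263, 0.0445 and 0.0472). Gla, which removes terminal galactose from glycolipids, read 147 and 161 in control and 195 and 276 in vinclozolin. The pools of vinclozolin differed from each other there more than those of control. The calls of Arsb and Gusb were lost under 14 and 16 of the 26 alternatives. The second probe sets of Gaa and Arsb fell, by 0.57 ± 0.15 and 0.44 ± 0.13 (adjusted p = 0.0186 and 0.0369). The membrane protein Cd63, the cholesterol carrier Npc2 and the proton pump subunits Atp6v1e1 and Atp6v1f rose by 0.28 to 0.38. Asah1, acid ceramidase, a partner of prosaposin in ceramide breakdown, was the exception and fell at both probe sets, by 0.55 ± 0.15 and 1.05 ± 0.14 (adjusted p = 0.0278 and 0.000235). When F2 control replicate 1 or 2, or F2 vinclozolin replicate 1 or 2, was left out, 1, 2, 5 and 2 were called higher, Psap among them each time. Loess normalization gave 5 and median centring 17.

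At the brightest probe set, calls among genes of oxidative phosphorylation were all higher, by small amounts. At other probe sets, 1 gene of complex I and 1 of complexes II and III had a lower call and no higher one. Of 34 tested genes of complex I, 7 were called higher (median 0.20), with 4 of 12 of complexes II and III (0.16), 4 of 9 of complex IV (0.25) and 4 of 13 of ATP synthase (0.23), and none was called lower. Atp5f1e, the epsilon subunit of ATP synthase, read 1794 and 1870 in control and 2566 and 2956 in vinclozolin (0.58 ± 0.12, adjusted p = 0.00431). Ndufb3 and Ndufa8 of complex I both rose by 0.50 ± 0.10 (adjusted p = 0.00313 and 0.00498), and Uqcr10 of complex III rose by 0.48 ± 0.12 (adjusted p = 0.0172). Cox5a of complex IV rose by 0.40 ± 0.13 (adjusted p = 0.0491). The medians stayed above that of all genes under each scaling tried, at 0.13, 0.09, 0.17 and 0.14 with loess against 0.05 for all genes. In the same order of lists there were 1, 0, 0 and 0 calls without F2 control replicate 1, and 3, 2, 1 and 2 without F2 control replicate 2. Leaving out an F2 vinclozolin array gave 3, 2, 3 and 3 (replicate 1) or 3, 0, 0 and 1 (replicate 2). Leaving out either F1 vinclozolin array gave 17, 5, 6 and 8 higher calls, and 2 lower calls in complex I.

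Of 29 genes of the large subunit of the cytosolic ribosome 5 rose, with a median of 0.15, and of 13 of the small subunit 2 rose, with a median of 0.16. With quantile normalization the medians were 0.04 and 0.09, against 0.06 for all genes. Among 74 genes of the mitochondrial ribosome 7 rose and 2 fell (median 0.16), and Mrpl54 and Mrps33 both rose by 0.48. Leaving out F2 control replicate 1 or 2 or F2 vinclozolin replicate 2 gave no call for either subunit of the cytosolic ribosome and 1, 3 and 1 higher calls for the mitochondrial one, and leaving out F1 vinclozolin replicate 1 or 2 gave 13, 6 and 23. Median centring gave 15, 7 and 23.

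Of 45 hnRNPs and related RNA-binding proteins 8 fell and 3 rose (median -0.02), whereas under median centring 3 were called lower and 8 higher. Hnrnpf, a splicing regulator, read 1155 and 1182 in control and 746 and 617 in vinclozolin (-0.77 ± 0.09, adjusted p = 0.000158). Sfpq, a paraspeckle protein, fell by 0.63 ± 0.15 and Hnrnpd, which binds AU-rich mRNAs, by 0.51 ± 0.14 (adjusted p = 0.0103 and 0.0275). Hnrnpu, Fubp1, Elavl1, Syncrip and Hnrnpm fell by 0.31 to 0.43 at their brightest probe sets, while a dimmer one of Hnrnpu rose by 0.42 ± 0.12 (adjusted p = 0.0269). Tia1, a stress granule protein, rose by 0.50. The lower calls numbered 1, 2 and 2 without F2 control replicate 1, F2 control replicate 2 or F2 vinclozolin replicate 2.

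Splicing factors had 4 higher and 5 lower calls among 54, which turned to 11 higher and 4 lower with median centring. Without F2 control replicate 1, F2 control replicate 2 or F2 vinclozolin replicate 2 there were 2, 1 and 1 higher and 2, 3 and 2 lower calls, and without F1 vinclozolin replicate 1 or 2 there were 10 higher and 7 lower. Sf3b1, the branch-point subunit of the U2 particle, read 2010 and 1932 in control and 1435 and 1061 in vinclozolin (-0.67 ± 0.13, adjusted p = 0.00375). At a dimmer probe set it fell from 266 and 285 to 56.3 and 33.6 (-2.28 ± 0.17, adjusted p = 2.7e-06), and the other read -0.14 ± 0.10. Scaf11 fell at 3 of 4 probe sets, with differences of -0.53, -2.15 and -0.42. Snrnp70, of the U1 particle, rose by 0.57 ± 0.11 (adjusted p = 0.00264). Among 37 RNA helicases 1 rose and 4 fell, which turned to 8 higher and 2 lower with median centring. The lower calls numbered 1 without F2 control replicate 1, F2 control replicate 2 or F2 vinclozolin replicate 2 and 8 without F1 vinclozolin replicate 1 or 2. Ddx6, a factor of mRNA decay, had the lowest difference of these (696 and 693 against 342 and 266; -1.16 ± 0.13, adjusted p = 7.1e-05), with -0.34 and -0.06 at its other probe sets. The largest drops of single probe sets in named genes were not at the brightest one. Nedd4, a ubiquitin ligase, read 1455 and 1458 in control and 219 and 172 in vinclozolin at 1 probe set (-2.81 ± 0.12, adjusted p = 7.1e-09) and fell at 3 others, but differed by -0.09 ± 0.08 at the brightest. Eprs1, a tRNA synthetase, fell at 1 probe set from 322 and 316 to 51.1 and 29.1 (-2.60 ± 0.19, adjusted p = 2.7e-06), while the brightest differed by -0.21 ± 0.13 and another by 0.09 ± 0.10. Both genes were chosen for this after their values were seen.

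Chromatin genes had 2 higher and 8 lower calls among 58 (median -0.03), which turned to 11 higher and 4 lower (median 0.08) with median centring. Dnmt3a, the DNA methyltransferase that sets new methylation marks, fell at both probe sets, from 131 and 124 to 51.6 and 60.4 (-0.995 ± 0.19, adjusted p = 0.00349) and from 112 and 106 to 56.0 and 60.5 (-0.75 ± 0.13, adjusted p = 0.00137). Uhrf1, which brings the maintenance methyltransferase to newly copied DNA, fell from 349 and 424 to 220 and 211 (-0.79 ± 0.14, adjusted p = 0.0015). The groups did not overlap in either gene, as at every called probe set, and both kept their calls under all alternatives. Kdm6b, a histone demethylase, and Ehmt1, a histone methyltransferase, fell by 0.64 and 0.54. Tet3, which oxidises methylcytosine, fell by 0.46 and Suv39h2 by 0.41, calls lost under 16 and 17 of the 26 alternatives. Chd8 and Kmt2a rose by 0.48 and 0.42. There were 3, 4 and 4 lower calls without F2 control replicate 1, F2 control replicate 2 or F2 vinclozolin replicate 2, and 13 without F1 vinclozolin replicate 1 or 2.

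Leydig cell and steroidogenic genes had 5 higher and 1 lower calls among 19 at the brightest probe set (median 0.17). With all tested probe sets counted, 4 genes had only higher calls, 5 only lower calls and 1 both. Over all genes, 23.8% of probe sets that were not the brightest of their gene were called lower. Insl3, the Leydig hormone of testis descent, read 1063 and 1062 in control and 1402 and 1506 in vinclozolin (0.45 ± 0.08, adjusted p = 0.00206). Hsd17b3, the enzyme that makes testosterone, rose from 270 and 259 to 379 and 380 (0.50 ± 0.11, adjusted p = 0.00955). Star, which brings cholesterol into mitochondria, rose from 765 and 691 to 1043 and 1012 at its brightest probe set (0.49 ± 0.09, adjusted p = 0.00205) and fell from 484 and 466 to 322 and 333 at the other (-0.51 ± 0.11, adjusted p = 0.00667). The direction of Star thus depended on the probe set. Scarb1, the receptor that takes up cholesterol from lipoproteins, fell at both, by 0.42 ± 0.10 and 0.61 ± 0.13 (adjusted p = 0.0104 and 0.00504). Inhba, an inhibin and activin subunit, and Pdgfra, a receptor of Leydig precursors, rose by 0.48 and 0.36. Without F2 control replicate 1, F2 control replicate 2 or F2 vinclozolin replicate 2 there were 2 higher calls, and without F1 vinclozolin replicate 1 or 2 there were 8. In bulk tissue, more cells of a type and more RNA per cell cannot be told apart.

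Genes of interstitial progenitors and stroma had 6 lower and 3 higher calls among 22 (median -0.17). Wnt5a, a secreted Wnt ligand, fell from 194 and 196 to 100.2 and 87.4 (-0.95 ± 0.14, adjusted p = 0.00045). Ptn, a heparin-binding growth factor, read 1021 on both control arrays and 733 and 567 in vinclozolin (-0.65 ± 0.13, adjusted p = 0.00461). Dcn, the matrix proteoglycan decorin, fell by 0.58 ± 0.13 and Tcf21, a transcription factor of stromal progenitors, by 0.40 ± 0.10 (adjusted p = 0.00944 and 0.0131). Pdgfrb and Nr2f2 fell by 0.38 and 0.27, whereas Pdgfra, Igf1 and Tcf4 rose by 0.34 to 0.40. Another probe set of Igf1, the insulin-like growth factor, fell by 0.91 ± 0.16 (adjusted p = 0.0015). The lower calls numbered 1 without F2 vinclozolin replicate 2 and 2 without either F2 control, and median centring gave 3 higher and 3 lower.

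Among 38 Wnt pathway genes 6 fell and 1 rose (median -0.08), against 6 lower and 6 higher (median 0.04) with median centring. Beside Wnt5a these were the co-receptor Lrp6 (-0.49 ± 0.11, adjusted p = 0.00641), the receptor Fzd8 (-0.52), the signal transducer Dvl2 (-0.87) and the secreted inhibitors Dkk2 (-0.71) and Wif1 (-0.57), while Tcf7l2, a transcription factor of the pathway, rose by 0.42. Of 31 TGF-beta and BMP genes 4 fell and 2 rose, against 4 and 5 with median centring. Smad7, the inhibitory Smad, fell from 213 and 210 to 103 and 127 (-0.81 ± 0.16, adjusted p = 0.00322), and at a second probe set by 0.67 ± 0.20. The BMP receptors Bmpr2 and Bmpr1a fell by 0.80 and 0.52. The lower Wnt calls numbered 2, 3 and 2 without F2 control replicate 1, F2 control replicate 2 or F2 vinclozolin replicate 2. Those of the TGF-beta and BMP list numbered 2 in each case.

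**Figure D5:**
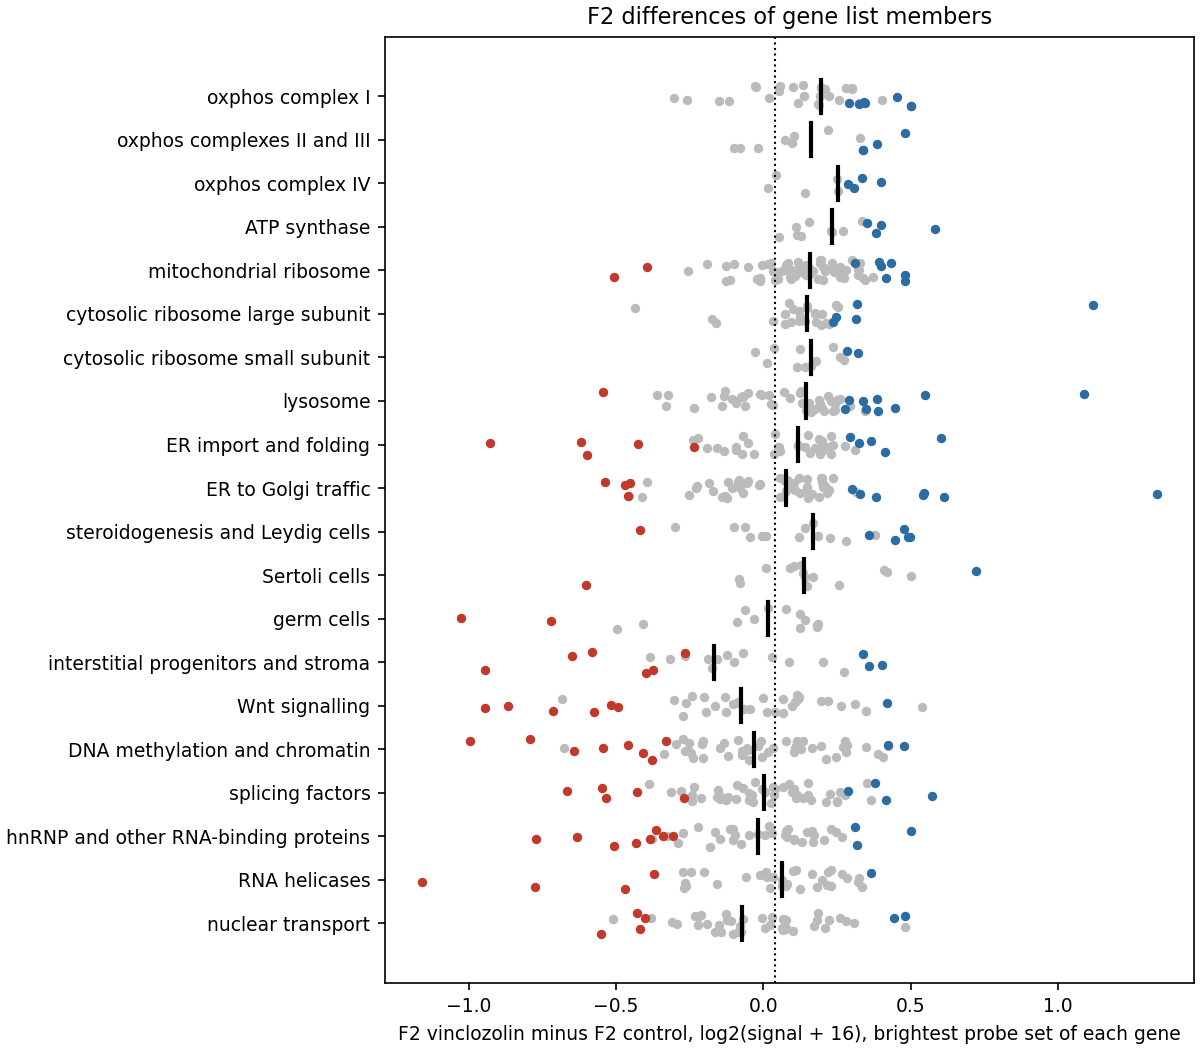
F2 difference (x axis, log2(signal + 16)) of each member of 20 gene lists (rows) at its brightest probe set. Blue points were called higher, red points lower and grey points neither, black bars are list medians, and the dotted line is the median of all genes, 0.04. The medians run from -0.17 in interstitial progenitors and stroma to 0.25 in complex IV.

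Germ and Sertoli cell genes were read at the brightest probe set, where 5.09% of all genes were called lower and 6.02% higher. With all probe sets counted, 3 germ cell genes had only lower calls. Among 16 Sertoli cell genes, 5 then had only lower calls and 1 only higher ones. Of 15 germ cell genes 2 fell: Kit, the receptor of stem cell factor, from 73.7 and 80.1 to 26.4 and 33.1 (-1.02 ± 0.26, adjusted p = 0.0154), and Mov10l1, a helicase of the piRNA pathway, by 0.72 ± 0.21 at signals under 40. Neither was called when an F2 control array or F2 vinclozolin replicate 2 was left out. Of the Sertoli cell genes 1 fell and 1 rose at the brightest probe set. Dmrt1, a transcription factor of testis identity, fell by 0.60 ± 0.14 (106 and 91.9 against 59.3 and 59.9; adjusted p = 0.0117). Cst9l, a cystatin relative, rose by 0.72 ± 0.15 (adjusted p = 0.00479). Of 13 tested genes in a list of the androgen receptor and responsive genes, 1 rose and 1 fell at the brightest probe set. The median was 0.01, against 0.04 for all genes. With all probe sets counted, 1 gene had only higher calls and 3 only lower ones. Rhox5, an androgen-responsive homeobox gene, rose from 358 and 350 to 461 and 468 (0.38 ± 0.09, adjusted p = 0.014), and Ncoa3, a coactivator of steroid receptors, fell by 1.10 ± 0.17 (adjusted p = 0.00087).

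Immediate early genes had 4 higher calls and 1 lower among 31 and a median of -0.01 (0.10 with median centring and 0.06 with quantile normalization). Beside Fos and Ier2 the higher calls were Egr1, which rose from 445 and 435 to 716 and 701 (0.67 ± 0.17, adjusted p = 0.0186), and Fosb at signals under 40. With all tested probe sets counted, 4 immediate early genes had only higher calls and 3 only lower ones. Of the latter, 2 fell at 2 or more probe sets. Gsta4, which detoxifies lipid aldehydes, rose from 1191 and 1212 to 1865 and 2146 (0.73 ± 0.09, adjusted p = 0.000231). The peroxiredoxin Prdx6, the glutathione transferase Gstm2 and catalase (Cat) fell by 0.45, 0.51 and 0.43, which made 3 higher and 3 lower calls among 30 genes of metallothioneins and oxidative defence (7 and 2 with median centring). Without F2 control replicate 1, F2 control replicate 2 or F2 vinclozolin replicate 2 there were 2 higher calls and 1 lower. Dnajc7, a co-chaperone, rose by 0.70 ± 0.12 (adjusted p = 0.00129), and the cytosolic chaperone Hspa4 fell by 0.76 ± 0.15 (adjusted p = 0.00482). Secretory genes of the ventral prostate were near background: Scgb1d2 read 0.6 on both control arrays and 24.2 and 13.2 in vinclozolin, and Scgb1d4 1.1 and 0.6 against 20.2 and 22.4. Svs5, a seminal vesicle protein gene, rose from 625 and 665 to 958 and 967 (0.57 ± 0.14, adjusted p = 0.0166).

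Summed signals of other cell types' markers were 2157 and 2059 in control and 2172 and 2335 in vinclozolin for 12 endothelial genes, 767 and 723 against 689 and 588 for 13 macrophage genes and 14444 and 14504 against 15716 and 15441 for 14 erythroid genes. The groups did not overlap in these 3 sums, nor in those of coelomic epithelium (1406 and 1391 against 1365 and 1236), adrenal (51.9 and 65.1 against 70.5 and 68.0) and ovarian genes (512.1 and 523.7 against 440.3 and 511.6). Across all probe sets tested, 58% showed the same separation of 2 against 2 arrays. They overlapped for smooth muscle, striated muscle, neural, mesonephric and liver genes. Markers below a signal of 20 on all 4 arrays at every probe set included Apoa1 and Fgb of liver, Cyp11b1 and Cyp21a1 of adrenal, Pax2 and Cdh16 of the mesonephric duct, Myod1 and Ckm of striated muscle, Rspo1 of ovary and Ptprc of leukocytes. Probe sets that low were 7 of 11 for liver, 2 of 3 for adrenal and 3 of 18 for mesonephric duct. They were 5 of 15 for striated muscle, 2 of 10 for ovary and 2 of 15 for macrophages. Other markers of these lists were bright, such as Epcam of the mesonephric list (498.5 to 623.7), Wnt4 of ovary (205.2 to 264) and Tnnc1 of striated muscle (173.2 to 207.8). Among single markers, Hbz, an embryonic globin, rose by 0.65 and the endothelial Cldn5 by 0.39. Of 9 tested smooth muscle genes 1 fell and 2 rose. Acta2, smooth muscle actin, fell from 470 and 467 to 254 and 274 (-0.79 ± 0.10, adjusted p = 0.000152), while Smtn, smoothelin, rose from 145 and 132 to 198 and 218 (0.54 ± 0.14, adjusted p = 0.0159) and Myl9, a myosin light chain, from 1426 and 1455 to 1698 and 1779 (0.27 ± 0.08, adjusted p = 0.0298). The calls of Smtn and Myl9 were lost without F2 control replicate 1, F2 control replicate 2 or F2 vinclozolin replicate 2. The part of other cells in the F2 differences was not tested.

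The F2 differences were set against those of F1 and F3, whose arrays are separate. Of the 1021 probe sets higher in F2, 95.6% were above 0 in F1 and 82.5% in F3, against 48.3% and 47.8% of all probe sets. Of the 2097 lower in F2, 96.1% were below 0 in F1 and 86.0% in F3. In the higher set the median difference was 0.45 in F2, 0.37 in F1 and 0.18 in F3, and in the lower set it was -0.70, -0.69 and -0.27. The beta-actin ratios of the vinclozolin arrays were 0.192 and 0.149 in F1 and 0.395 and 0.360 in F3, and the part of these ratios was not tested.

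Few F2 differences were shown to differ from the other generations. The F2 difference differed from that of F1 at 7 probe sets (0.0322%) and from that of F3 at 112 (0.515%), and only 1, without a gene symbol, differed from both. The 1 named gene apart from F1 was Rasd2, a small GTPase, with 0.94 in F2 and -0.65 in F1 at the brighter probe set. Its dimmer probe set fell in F2, by 0.80 ± 0.23 (adjusted p = 0.0328). Among named genes apart from F3 were Pdia4 (-0.93 in F2, -0.10 in F3), Golph3 (-1.22 and -0.19), Ireb2 (-1.36 and -0.13) and Sf3b5, a splicing factor subunit (-0.55 and 0.34). No probe set was apart from F1 when F1 control replicate 1, F2 control replicate 1, F2 control replicate 2 or F2 vinclozolin replicate 2 was left out. The number was far larger without F1 vinclozolin replicate 1 than without F1 vinclozolin replicate 2, fits that each leave 1 array in that group. The number apart from F3 was 7 to 38 without any 1 of the 6 control arrays, 15 without F2 vinclozolin replicate 2 and 355 without F2 vinclozolin replicate 1. It was 634 or 635 without F1 vinclozolin replicate 1 or 2, and 19 or 29 without F3 vinclozolin replicate 1 or 2.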

How the data were processed

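RNA was extracted with Trizol and labelled with biotin by standard Affymetrix procedures, per the labels' protocols. The deposited values are linear signal intensities per probe set on 12 arrays. The 2% trimmed mean was 125 on each, so the arrays had been scaled to a common level earlier. The summarisation software is not given in the sources used here. The number of arrays limits the precision. Of 31099 probe sets, 57 Affymetrix controls were left out. Of the other 31042, the array annotation gave 1 gene symbol for 20826, several for 436 and none for 9780, and only the first kind was named. Values were transformed as log2(value + 16). Probe sets whose mean log2 value was among the lowest 30% (9313, signals below 14.8) were not tested. limma 3.58.1 (R 4.3.3; lmFit, eBayes with trend) estimated 6 group means from 12 arrays, with 6 residual and 8.97 prior degrees of freedom. p-values were adjusted over all tested probe sets (Benjamini-Hochberg, 0.05). The script was tested on simulated data. The smallest two-sided exact permutation p for 2 arrays against 2 is 0.333, so the tests rest on a spread pooled over 6 groups. The brightest probe set of a gene has the highest mean log2 value over the 12 arrays.

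Genes were named by rule. These were the 12 highest and 12 lowest genes, by median, with at least 2 probe sets called in 1 direction and none in the other. To these came the 10 highest and 10 lowest called genes with 1 tested probe set, groups that do not overlap and a higher mean of at least 100, and the 6 genes called in both directions with the widest span. Up to 4 called members of each list and probe sets apart from both other generations completed the rule. Further called list members, genes called at every probe set and genes that differ from 1 other generation were named after their values were seen. The members and lists were chosen with earlier results of these data known. Promoters came from RefSeq (GRCr8). Alternatives varied the pseudocount, filter, normalization, fit, controls and each array, and 2 of them, both F1 vinclozolin arrays left out and the brightest probe set chosen on the F1 and F3 controls, were chosen after seeing the data.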

Additional observations from a re-analysis of the deposited data

Results flagged for a closer look

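Of the probe sets named for F2, 12 differed between generations in a test of the difference itself (limma, Benjamini-Hochberg adjusted over all probe sets). The set took in any called probe set with 1 gene symbol that passed the test against F1, so the count is a description. Over all probe sets tested, 0.0322% differed from F1 and 0.515% from F3. The F2 difference exceeded the F1 difference in Rasd2 by 1.59 ± 0.24 (SE; adjusted p = 0.034), with opposite signs in the 2 generations. Against F3, the gap was -2.93 in Scgb1d4 and -2.60 in Scgb1d2, but both were near background on both F2 control arrays and passed the filter on low values only through the F3 vinclozolin arrays, where they were high, so these values are given as a description. The F2 difference was lower than that of F3 in Ddx3x-ps1 (-1.46 ± 0.25), Ireb2 (-1.22 ± 0.21), Zfp655 (-1.08 ± 0.22) and Golph3 (-1.03 ± 0.21), with adjusted p = 0.023, 0.023, 0.042 and 0.0429. The same held for Rnf4 (-0.996 ± 0.17), Mga (-0.93 ± 0.17) and Sf3b5 (-0.89 ± 0.15), with adjusted p = 0.0199, 0.0312 and 0.0199. In Pdia4 the gap was -0.82 ± 0.16 and in Mcl1 -0.71 ± 0.14 (adjusted p = 0.0369 and 0.0438). Both vinclozolin arrays of F2 showed the direction of the F2 difference in each of these genes. This held for all 3118 probe sets called in F2, and the groups did not overlap at 58% of all probe sets tested.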

How the results depend on the processing

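Leaving out F2 control replicate 1 or 2, F2 vinclozolin replicate 2 or an F1 vinclozolin array moved the call total more than any scaling. Leaving out F2 vinclozolin replicate 1 moved it less than median centring did (4088 calls). Of all settings, median centring gave the most higher calls. With each of the 12 arrays left out in turn, the calls ranged from 1083 to 4884, the higher ones from 211 to 1988 and the lower ones from 872 to 2901. Genes higher at several probe sets ranged from 1 to 37, genes lower from 57 to 241, F2 minus F1 calls from 0 to 1868 and F2 minus F3 calls from 7 to 635. The medians ranged from 0.030 to 0.044 for the brightest probe sets and from -0.24 to -0.20 for the others. Setting F2 vinclozolin against the mean of the F1, F2 and F3 control group means gave 4930 calls, 1894 higher and 31 genes higher at several probe sets. Leaving out both F1 vinclozolin arrays gave 4889, 1975 and 36, with 645 F2 minus F3 calls, and array weights gave 512 of the last. Without the trend there were 574 higher calls, 5 genes higher at several probe sets, 0 F2 minus F1 and 13 F2 minus F3 calls. Without the filter on low values the last 3 counts were 7, 1 and 30. Median centring gave 2594 higher and 1494 lower calls, with 60 genes higher and 94 lower at several probe sets. Testing the brightest probe sets alone gave 1026 calls, 550 higher and 476 lower. The median of the brightest probe sets was 0.032 with loess, 0.048 with the lowest 50% left out, 0.16 with median centring, 0.032 with a pseudocount of 64 and 0.051 with quantile normalization. That of the others was -0.17 with loess, -0.11 with median centring, -0.28 and -0.13 with pseudocounts of 1 and 64 and -0.15 with quantile normalization. Replicate numbers did not pair the samples (the deviations of same-numbered F2 arrays correlated at -0.04), and the replicate block gave 3117 calls, 1022 higher, with 6 F2 minus F1 and 141 F2 minus F3 calls. Of 356 named calls, 102 were kept under all 26 alternatives and none changed sign. The list medians moved by more than the spread between pools in 41 of 47 lists with median centring, 17 with the mean of all tested probe sets of each gene, 16 with loess and 11 with quantile normalization. Signals near background limit the dim probe sets, whose differences the pseudocount shrinks.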
